A study of Homo sapiens with 6 samples.

Results

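Integrins and laminins are the receptor and ligand sides of the attachment of epithelial cells to the basement membrane. The genes described here are the 33 rows, of 61806 in the deposited gene table, whose symbol names an integrin α subunit (13 genes, ITGA1 to ITGA11, ITGAV and ITGAE), an integrin β subunit (8 genes, ITGB1 to ITGB8) or a laminin α, β or γ chain (12 genes). They were taken by symbol alone, with earlier results of these data known, and counts below are over 32 of them. Their RNA was measured in 6 poly(A) RNA-seq libraries of HCT116, an established human colorectal carcinoma line. Of these, 3 libraries are labelled si-NC with genotype wildtype, and 3 are labelled si-STRIP2 with genotype STRIP2 knockdown. The prefix stands for small interfering RNA, a duplex that directs cleavage of a matching transcript, and both groups were grown in McCoy's 5A medium with fetal bovine serum. The siRNA sequences, their number, the dose and the time of harvest are not given in the sources used here, nor whether a group's libraries are separate cultures, so p-values measure only the spread between these libraries, which may be technical.

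An integrin is a membrane receptor made of 1 α and 1 β subunit, and the pair decides what it binds. ITGB1 pairs with most of the α subunits, ITGB4 pairs with ITGA6 in hemidesmosomes, and ITGAV pairs with several β subunits. A laminin is a trimer of 1 α, 1 β and 1 γ chain secreted into the basement membrane. Laminin-332, whose α and β chains are LAMA3 and LAMB3, anchors epithelia through the pairs of ITGA6 with ITGB4 and of ITGA3 with ITGB1. Laminin-511 and laminin-521 share the chains LAMA5 and LAMC1 and differ in LAMB1 or LAMB2. In colorectal carcinoma, laminin-332 is known from staining of cells at the invasive front.

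The libraries held 17184963 to 21721218 counts, and counts of mitochondrial genes made up 4.88% to 8.88% of them in si-NC and 5.73% to 6.30% in si-STRIP2. The targeted gene, STRIP2 (a member of the striatin-interacting protein family), had 3.19, 3.77 and 3.81 FPKM in si-NC and 2.71, 2.53 and 2.58 FPKM in si-STRIP2, a log2 fold change of -0.46 (standard error, SE, 0.083; edgeR adjusted p = 1.62e-05). FPKM is the fragment count scaled by the gene's exonic length and by the library's total. The length is an annotated value for each gene, such as 14561 bases for ITGB1 and 6761 for ITGB4. It need not be that of the transcripts expressed in these cells, so orders and shares across genes depend on it. The groups of STRIP2 did not overlap, and its level in si-STRIP2 was 72.8% of that in si-NC. As a check of the cell type, the 8 epithelial markers summed to 723 to 751 FPKM per library in si-NC and 691 to 718 FPKM in si-STRIP2, with VIL1 at most 0.0233 FPKM in the mean of a group. The 8 fibroblast and smooth muscle markers summed to 3.64 to 4.17 and 3.27 to 3.51 FPKM, most of it COL1A1 (2.28 FPKM in si-NC, 2.04 in si-STRIP2) and ACTA2 (1.43 and 1.26), with COL1A2 and THY1 at 0 counts in every library. The 6 endothelial markers summed to 0.39 to 0.49 and 0.16 to 0.31 FPKM, and the 8 leukocyte markers to 0.38 to 0.68 and 0.32 to 0.63 FPKM. The summed epithelial, fibroblast and endothelial markers thus lay lower in si-STRIP2 without overlap. Single markers did not all follow their sum: of the epithelial ones CDH1 fell by 0.60 and KRT19 rose by 0.22 on the log2 scale, and KDR (0.343 to 0.16 FPKM) was the 1 endothelial marker with enough counts to test. The markers' part in the results was not tested.

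In si-STRIP2 cells most expressed integrin and laminin genes were lower than in si-NC cells. The largest falls among the abundant genes were those of ITGA2, an α subunit of collagen receptors, to 48.4% of the control level, and of ITGB1, to 60.1%. The laminin-332 chains LAMA3 and LAMB3 fell by like amounts, to 70.3% and 69.0%. The genes that rose were LAMA5, ITGB5 and ITGB8. Of the 32 genes, 23 passed the filter on low counts and were tested, and 16 of the 23 (69.6%) passed edgeR's test (adjusted p under 0.05, referred to as called), beside 54.8% of all 15687 genes tested. There were 13 calls lower (56.5% of those tested, beside 27.0% of all genes) and 3 higher, beside 27.8% of all genes called higher. These counts include LAMB1, ITGA1 and ITGA7 (lower) and LAMA5 (higher). The exons of these genes overlap those of other genes with many counts, so their values are uncertain, as described below. A call with a change of at least 1.5-fold was made for 5 of the 23 (ITGA2, ITGB1, ITGA1, LAMA2 and ITGB8), beside 14.5% of all genes, and the groups lay apart in FPKM for 18 of the 23 (78.3%), beside 58.6% of all genes. The median log2 fold change was -0.26 over the 23 genes and 0.014 over all genes tested. Values of RNA from bulk cultures cannot tell fewer cells with a transcript from less of it in each cell.

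**Figure D1:**
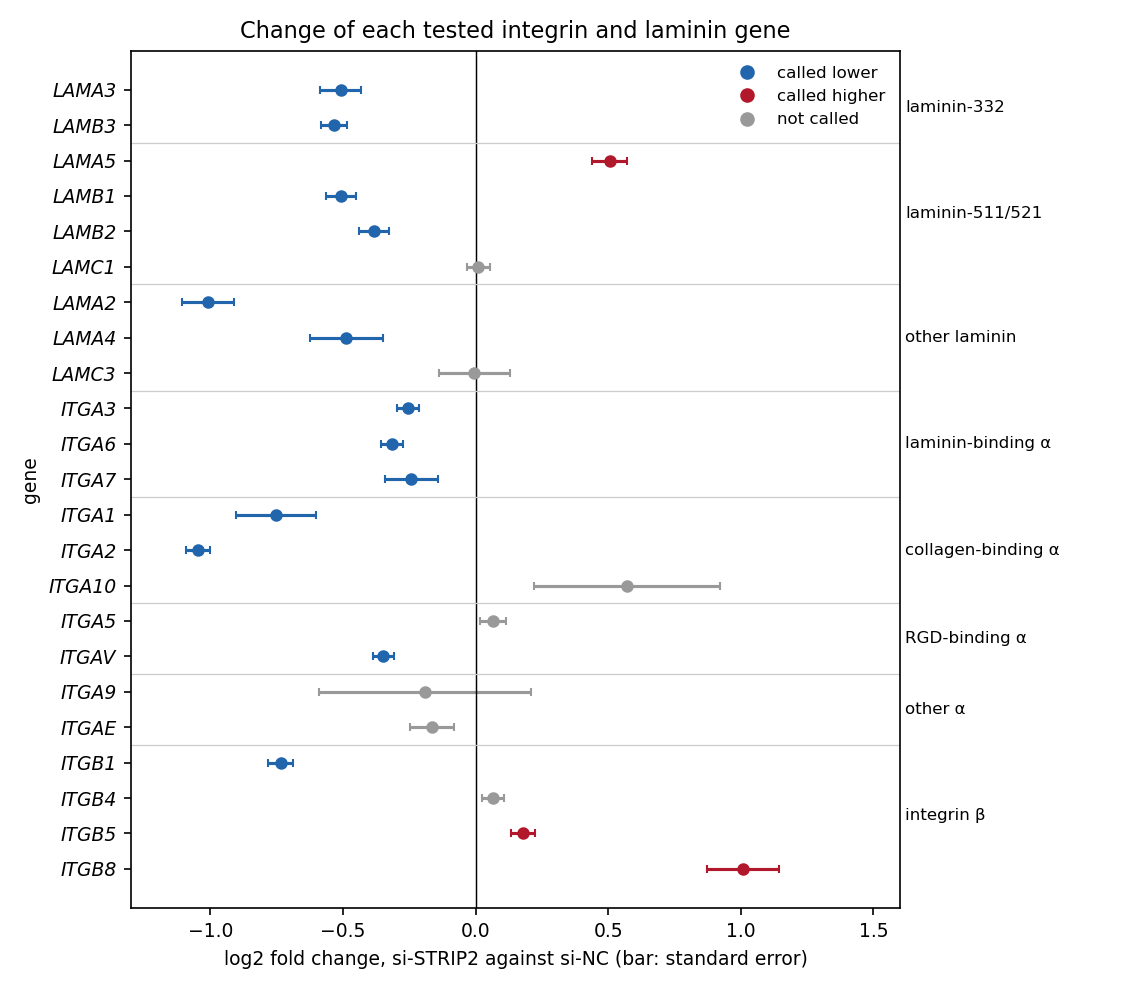
Log2 fold change of each of the 23 tested integrin and laminin genes in si-STRIP2 against si-NC cells (horizontal axis, 3 libraries a group), with standard errors as bars and genes grouped by class. Blue points are the 13 genes called lower, red points the 3 called higher (LAMA5, ITGB5 and ITGB8) and grey points the 7 not called.

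Start sites are shown first for 4 of these genes, as 300-base windows from 250 bases before the start to 50 bases from it on the gene's own strand (RefSeq, GRCh38.p14). LAMA3 and LAMB3 are shown because they fell together, ITGA5 because it holds the same kind of word and was not called, and ITGB1 because it is the most abundant member. Capitals mark TGANTCA, the word bound by AP-1 dimers (its reverse complement is the same word), and GGAATG or its reverse complement CATTCC, the word bound by TEAD factors. The words do not overlap each other here. The LAMA3 window is chr18:23872770-23873069 on the plus strand. The LAMB3 window is chr1:209651325-209651624 on the minus strand, that of ITGA5 is chr12:54419217-54419516 on the minus strand and that of ITGB1 is chr10:32958181-32958480 on the minus strand. Those of LAMA3, LAMB3 and ITGB1 lie inside the bounds the deposited table gives for these genes, which reach to a transcript that starts farther upstream.
LAMA3: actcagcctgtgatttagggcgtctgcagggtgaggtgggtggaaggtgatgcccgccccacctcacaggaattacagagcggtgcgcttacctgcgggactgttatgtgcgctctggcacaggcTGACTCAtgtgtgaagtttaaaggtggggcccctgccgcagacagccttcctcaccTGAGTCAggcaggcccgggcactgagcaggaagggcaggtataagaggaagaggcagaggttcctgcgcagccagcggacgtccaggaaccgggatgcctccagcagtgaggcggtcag
LAMB3: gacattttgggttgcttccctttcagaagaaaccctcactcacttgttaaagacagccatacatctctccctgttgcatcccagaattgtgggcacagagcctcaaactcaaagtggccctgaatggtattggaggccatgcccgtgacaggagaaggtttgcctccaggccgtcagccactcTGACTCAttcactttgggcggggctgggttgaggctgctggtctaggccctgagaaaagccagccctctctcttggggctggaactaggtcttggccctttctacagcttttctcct
ITGA5: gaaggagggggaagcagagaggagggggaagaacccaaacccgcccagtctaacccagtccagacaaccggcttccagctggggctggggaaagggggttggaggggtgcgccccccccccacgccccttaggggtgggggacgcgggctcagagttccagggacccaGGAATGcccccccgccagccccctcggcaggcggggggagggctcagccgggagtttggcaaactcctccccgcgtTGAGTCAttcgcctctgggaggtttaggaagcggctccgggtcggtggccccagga
ITGB1: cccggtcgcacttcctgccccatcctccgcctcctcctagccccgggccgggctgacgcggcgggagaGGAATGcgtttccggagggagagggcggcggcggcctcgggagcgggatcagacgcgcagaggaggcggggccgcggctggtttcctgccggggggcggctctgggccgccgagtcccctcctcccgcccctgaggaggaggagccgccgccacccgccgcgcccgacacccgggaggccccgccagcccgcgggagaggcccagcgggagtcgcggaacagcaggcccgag

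In LAMA3 the AP-1 word occurred 125 bases before the start (TGACTCA) and again 69 bases before it (TGAGTCA). In LAMB3 it occurred 67 bases before 1 of its 3 starts in the table (TGACTCA). In ITGA5 it lay 6 bases before the start (TGAGTCA), with GGAATG 82 bases before it, and in ITGB1 GGAATG lay 182 bases before the start. Windows were matched by symbol for 24 of the 32 genes, 31 windows in all, since some genes have more than 1 start. TGANTCA was in 3 of the 31 windows (9.68%), those of LAMA3, LAMB3 and ITGA5, and in 7.71% of the 35116 windows of all genes. The other members called lower that have a window, among them ITGA2, LAMA2, ITGB1, ITGAV and ITGA6, did not hold it. GGAATG in either orientation was in 4 of the 31 (12.9%), those of ITGA5, ITGB1, ITGA10 and LAMA2, and in 14.0% of all windows. These are descriptions of the letters in 1 window per start, and say nothing of whether a factor bound there.

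LAMB3 and LAMA3 were lower in every si-STRIP2 library than in every si-NC library. LAMB3 (ENSG00000196878, GRCh38, chromosome 1, 209614870 to 209652425, minus strand), the β3 chain, had 13.88, 14.08 and 14.41 FPKM in si-NC and 9.37, 10.12 and 9.82 FPKM in si-STRIP2. Its log2 fold change was -0.54 (SE 0.050, edgeR adjusted p = 3.80e-11). LAMA3 (ENSG00000053747, chromosome 18, 23689453 to 23956222, plus strand), the α3 chain, was about an order of magnitude less abundant per length, at 1.45, 1.65 and 1.55 FPKM in si-NC and 1.08, 1.09 and 1.10 FPKM in si-STRIP2. It fell by 0.51 on the log2 scale (SE 0.078, edgeR adjusted p = 1.10e-06). The log2 fold changes of LAMA3 and LAMB3 differed by less than the standard error of either. With 1 added to each FPKM before taking logs, which understates changes of low genes, limma gave LAMA3 a difference of -0.29.

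Of the 4 chains of laminin-511 and laminin-521, 1 rose, 2 fell and 1 was not called. LAMA5 (ENSG00000130702, chromosome 20, 62307955 to 62367312, minus strand), the α5 chain that most adult basement membranes hold, had 3.90, 3.93 and 5.09 FPKM in si-NC and 6.62, 6.14 and 5.55 FPKM in si-STRIP2. The groups did not overlap, and si-NC replicate 3 lay nearer to si-STRIP2 replicate 3 than to the other si-NC libraries. The log2 fold change of LAMA5 was 0.51 (SE 0.066, edgeR adjusted p = 6.26e-08). The value is uncertain to the extent that ADRM1, which lies on the opposite strand with exons that overlap those of LAMA5, held 74.7% as many counts and rose by 0.16 on the log2 scale, since the sources used here do not say whether counts were taken by strand. LAMB2 (chromosome 3, 49121114 to 49133118), the β2 chain, fell from 10.7 ± 1.04 to 8.19 ± 0.520 FPKM (SD, n = 3), a log2 fold change of -0.38 (SE 0.057, edgeR adjusted p = 5.75e-07). LAMB1 (chromosome 7, 107923799 to 108003213), the β1 chain, had 2.50, 2.80 and 2.68 FPKM in si-NC and 1.98, 1.85 and 1.77 FPKM in si-STRIP2, a log2 fold change of -0.51 (SE 0.057, edgeR adjusted p = 2.23e-09). DLD, a mitochondrial dehydrogenase gene on the opposite strand with exons overlapping LAMB1, held 405% as many counts and fell by 0.47 on the log2 scale, so the value of LAMB1 is uncertain for the same reason. LAMC1, the γ1 chain that these trimers share, was not called, at 14.2 ± 0.998 FPKM in si-NC and 14.3 ± 0.0757 FPKM in si-STRIP2 (n = 3, SD after ±), and a log2 difference of 0.010 (SE 0.044, edgeR adjusted p = 0.863).

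The chains LAMA1, LAMA2, LAMA4, LAMB4 and LAMC3 were below 1 FPKM. LAMA2 (chromosome 6, 128883138 to 129516566), the α2 chain known from the basement membrane of muscle, had 353, 287 and 269 counts in si-NC and 133, 153 and 144 counts in si-STRIP2. It went from 0.613 ± 0.0208 to 0.307 ± 0.0321 FPKM (SD, n = 3), a log2 fold change of -1.01 (SE 0.098, edgeR adjusted p = 1.11e-10). LAMA4, the α4 chain of vessels, fell by 0.49 on the log2 scale (SE 0.14, edgeR adjusted p = 0.00309), from 0.543 to 0.387 FPKM. LAMC3, the γ3 chain, was at 0.617 FPKM in si-NC and 0.613 FPKM in si-STRIP2, with an edgeR adjusted p of 0.974. LAMA1 and LAMB4 had at most 1 count in any library and were not tested.

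Among the laminin-binding α subunits all 3 were called lower, with log2 fold changes nearer to 0 than those of LAMA3 and LAMB3, a difference that was not tested. ITGA3 (ENSG00000005884, chromosome 17, 50055968 to 50090481, plus strand), the partner of ITGB1 in the main laminin receptor outside hemidesmosomes, had 35.34, 36.69 and 36.72 FPKM in si-NC and 30.08, 31.80 and 29.40 FPKM in si-STRIP2. Its log2 fold change was -0.26 (SE 0.040, edgeR adjusted p = 2.01e-06). ITGA6 (ENSG00000091409, chromosome 2, 172427354 to 172506459, plus strand), which pairs with ITGB1 or ITGB4, had 34.68, 37.53 and 35.16 FPKM in si-NC and 28.14, 28.48 and 29.86 FPKM in si-STRIP2. ITGA6 fell by 0.31 on the log2 scale (SE 0.041, edgeR adjusted p = 6.69e-08). For both genes the groups did not overlap. ITGA7, a laminin receptor subunit of muscle, went from 1.26 ± 0.0321 to 1.06 ± 0.0764 FPKM (SD, n = 3), a log2 fold change of -0.24 (SE 0.098, edgeR adjusted p = 0.0369). That call was lost under 10 of its 14 alternatives, and the genes whose exons overlap ITGA7, all on the opposite strand, together held 198% as many counts. Of these, BLOC1S1 (127%) was not called, while METTL7B (0.53) and ENSG00000258311 (0.62) were called higher (edgeR adjusted p = 0.00280 and 0.00584).

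The collagen receptor subunit ITGA2 had, with LAMA2, the largest fall on the log2 scale among the tested members. ITGA2 (ENSG00000164171, chromosome 5, 52989340 to 53094779, plus strand) had 19.19, 22.38 and 20.46 FPKM in si-NC and 10.08, 10.07 and 9.91 FPKM in si-STRIP2. The si-STRIP2 libraries lay close together, below every si-NC library. The log2 fold change was -1.05 (SE 0.046, edgeR adjusted p = 2.54e-19), and genes that overlap ITGA2 held 0.883% as many counts. ITGA1, the neighbouring gene 30.1 kb upstream and also a collagen receptor subunit, had 143, 114 and 107 counts in si-NC and 83, 49 and 74 counts in si-STRIP2, with a log2 fold change of -0.75 (SE 0.15, edgeR adjusted p = 7.01e-05). Its exons overlap those of PELO on the same strand, which held 631% as many counts and had a log2 fold change of -0.16, so the value of ITGA1 is uncertain. ITGA10, another collagen-binding subunit, had 14, 19 and 7 counts in si-NC and 27, 11 and 19 counts in si-STRIP2 and was not called (log2 fold change 0.57, SE 0.35, edgeR adjusted p = 0.172). Without si-NC replicate 2 its log2 fold change was 0.96 and it was called (edgeR adjusted p = 0.0481).

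Of the subunits that bind the RGD sequence of fibronectin and vitronectin, ITGAV fell and ITGA5 was not called. ITGAV (ENSG00000138448, chromosome 2, 186590010 to 186680901, plus strand) had 10.10, 10.51 and 10.28 FPKM in si-NC and 8.25, 7.91 and 8.15 FPKM in si-STRIP2, a log2 fold change of -0.35 (SE 0.039, edgeR adjusted p = 3.28e-09). ITGA5, the α subunit of the classical fibronectin receptor, had 8.45, 8.04 and 8.40 FPKM in si-NC and 8.47, 9.03 and 8.61 FPKM in si-STRIP2. The groups of ITGA5 did not overlap in FPKM, though 8.45 and 8.47 nearly met, and its log2 fold change of 0.064 (SE 0.048) did not pass, with an edgeR adjusted p of 0.263. ITGAE, which pairs with ITGB7 in a receptor for E-cadherin on lymphocytes, was at 2.61 ± 0.0625 FPKM in si-NC and 2.33 ± 0.184 FPKM in si-STRIP2 (n = 3 and SD), with an edgeR adjusted p of 0.0955. HASPIN, a single-exon gene on the opposite strand within ITGAE, held 113% as many counts and rose by 0.43 on the log2 scale. ITGA9 had 5 to 16 counts per library and an edgeR adjusted p of 0.707.

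The β subunits moved in different directions. ITGB1 (ENSG00000150093, chromosome 10, 32887273 to 33005792, minus strand), the shared β subunit of the laminin, collagen and fibronectin receptors, was the most abundant member in every library. It had 98.05, 100.83 and 95.24 FPKM in si-NC and 55.61, 60.45 and 61.01 FPKM in si-STRIP2. The mean went from 98.0 ± 2.80 to 59.0 ± 2.97 FPKM (SD, n = 3), a log2 fold change of -0.73 (SE 0.047, edgeR adjusted p = 3.80e-15). Genes that overlap ITGB1 held 0.0555% as many counts, and its pseudogene copy ITGB1P1, between which and ITGB1 reads could be split in counting, held 4.23% as many and fell by 0.58 on the log2 scale (edgeR adjusted p = 1.94e-09). ITGB4 (ENSG00000132470, chromosome 17, 75721328 to 75757818, plus strand), the hemidesmosome subunit, had 24.83, 25.83 and 26.47 FPKM in si-NC and 26.79, 28.47 and 25.59 FPKM in si-STRIP2. The ranges of ITGB4 overlapped and it was not called (log2 fold change 0.065, SE 0.042, edgeR adjusted p = 0.194). ITGB5, a partner of ITGAV in a vitronectin receptor, rose from 15.12, 14.92 and 13.57 FPKM to 16.49, 16.85 and 16.16 FPKM, a log2 fold change of 0.18 (SE 0.045, edgeR adjusted p = 0.00110). ITGB8, a partner of ITGAV that takes part in the activation of latent TGF-β, was scarce, with 105, 63 and 68 counts in si-NC and 158, 136 and 158 counts in si-STRIP2. It rose 2.01-fold, a log2 fold change of 1.01 (SE 0.14, edgeR adjusted p = 1.03e-07).

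**Figure D2:**
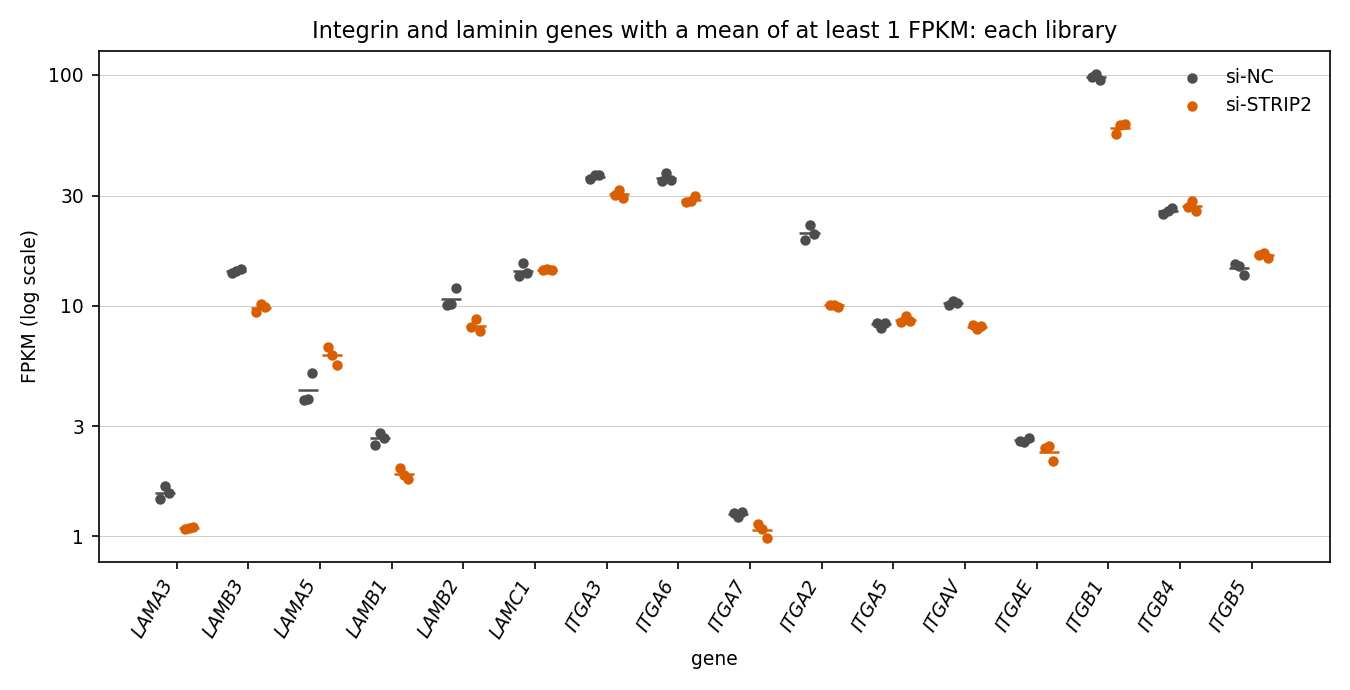
FPKM of the 16 integrin and laminin genes whose mean reached 1 FPKM in si-NC or si-STRIP2, on a log axis, with 1 point per library (grey si-NC, orange si-STRIP2) and a line at each group's mean. ITGB1 stands highest, at 98.0 FPKM in si-NC and 59.0 FPKM in si-STRIP2. The groups lie apart for 14 of the 16 genes (87.5%, beside 58.6% of all genes tested), among them ITGA2, ITGB1, LAMA3 and LAMB3.

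The remaining 9 members, among them ITGB2, ITGB3, ITGB6, ITGB7, ITGA4, ITGA8 and ITGA11, did not pass the filter. The highest count among them in any library was 12, for ITGB6, which pairs with ITGAV in epithelia, and 5 of the 9 had at most 3 counts in every library. In the shallowest library 3 counts of these genes are worth 0.0110 to 0.0392 FPKM, according to their length, so levels under that could not be told from 0. ITGB2 and ITGB7, the leukocyte subunits, had 0 to 7 and 0 to 2 counts per library.

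In si-NC the 8 highest levels per length were, in order, those of ITGB1 (98.0 FPKM), ITGA3 (36.3) and ITGA6 (35.8), ITGB4 (25.7), ITGA2 (20.7), then ITGB5 (14.5), LAMC1 (14.2) and LAMB3 (14.1). ITGA3 and ITGA6 overlapped in their ranges, as did ITGB5, LAMC1 and LAMB3, so these neighbours did not differ beyond their spread. In si-STRIP2 the first 4 stood in the same order, but ITGA6 (28.8) now overlapped ITGA3 (30.4) on one side and ITGB4 (26.9) on the other. ITGB5 (16.5) and LAMC1 (14.3) followed, and ITGA2 (10.02) overlapped LAMB3 (9.77) in its range.

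Summing FPKM within each kind of subunit describes the pools they form. The α subunits summed to 116 ± 3.70 FPKM in si-NC and 89.9 ± 1.12 FPKM in si-STRIP2, and the β subunits to 139 ± 3.14 and 103 ± 3.44 FPKM (SD, n = 3). The β pool without ITGB1 was 40.7 ± 0.412 FPKM in si-NC and 44.1 ± 1.75 FPKM in si-STRIP2. ITGB1 held 70.80%, 71.00% and 70.16% of the β pool in si-NC and 55.87%, 56.82% and 58.96% in si-STRIP2, a difference of -13.4 percentage points. ITGA3, ITGA6 and ITGA7, the laminin-binding subunits, together held 63.3% ± 0.230 of the α pool in si-NC and 67.1% ± 0.40 of it in si-STRIP2 (SD, n = 3), 3.73 percentage points more, while ITGA2 went from 17.9% to 11.1% of it. The levels of ITGA3, ITGA6 and ITGA7 were lower in si-STRIP2, and their share of the α pool was larger. That direction holds for this choice of 3 genes. The share was not computed with ITGA1 or ITGA2 counted among them, and it depends on where the class is bounded. The 12 α subunits other than ITGAE can pair with ITGB1. ITGB1 stood at 0.895, 0.862 and 0.844 of their summed FPKM in si-NC and at 0.641, 0.681 and 0.698 of that sum in si-STRIP2. The value depends on the exonic lengths used for FPKM (14561 bases for ITGB1, 9802 for ITGA3, 6679 for ITGA6 and 19336 for ITGAV). It does not show whether ITGB1 RNA was scarcer than that of its partners. RNA levels do not give the number of assembled pairs.

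Among the laminins, the β chains summed to 27.5 ± 1.34 FPKM in si-NC and to 19.8 ± 0.789 FPKM in si-STRIP2, while the α chains went from 7.01 ± 0.692 to 7.89 ± 0.556 FPKM (SD, n = 3), a difference near the spread. LAMA5 held 61.2% of the laminin α pool in si-NC (58.3% to 65.3% over the libraries) and 77.3% in si-STRIP2 (76.1% to 78.9%). The value of LAMA5 is uncertain because of ADRM1, as given above, and so is its share of the laminin α pool. LAMA3 went from 22.2% to 13.9% of that pool. In the laminin β pool LAMB3 stood at 49.7% to 52.5% of it in si-NC and 48.2% to 50.8% in si-STRIP2, ranges that overlap. For the shares of the laminin-binding subunits in the integrin α pool and of ITGB1 in the integrin β pool, every si-STRIP2 library lay on 1 side of every si-NC library. The 2-sided exact permutation test gave p = 0.1 for both, the least it can give with 3 libraries a group (0.1 also after Benjamini-Hochberg adjustment over these 2 shares).

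**Figure D3:**
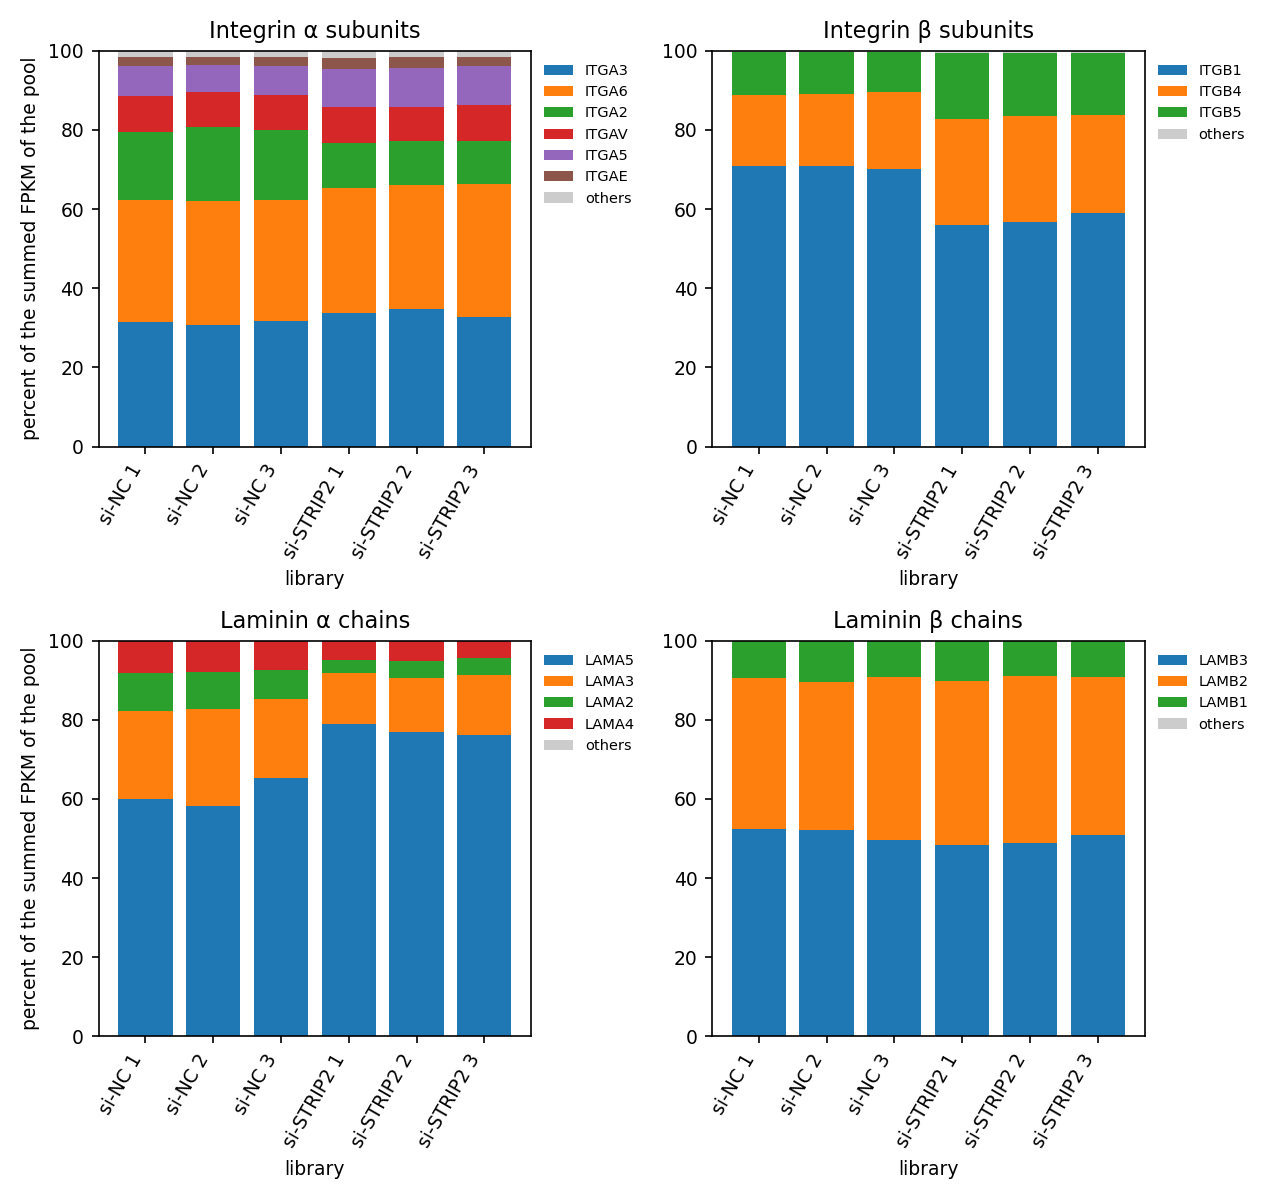
Percent of the summed FPKM of integrin α subunits (top left), integrin β subunits (top right), laminin α chains (bottom left) and laminin β chains (bottom right) held by each gene, in each of the 6 libraries; genes under 2% in every library are drawn together in grey. ITGB1 fills 70.2% to 71.0% of the β pool in si-NC and 55.9% to 59.0% in si-STRIP2. In si-STRIP2 ITGA2 takes less of the α pool, and LAMA5, whose value is uncertain because of ADRM1, takes more of the laminin α pool.

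Genes that work with integrins and laminins were counted in 4 lists, which were chosen with earlier results of these data known. Their shares of calls are therefore descriptions and not tests of the lists. Adaptors link the β tails to actin, and the adaptor and focal adhesion list had more calls higher than lower. Of 38 tested genes, 16 were called higher (42.1%, beside 27.8% of all genes) and 4 lower (10.5%, beside 27.0%). The share called either way was 52.6%, near the 54.8% of all genes, and the median log2 fold change was 0.15. ACTN4, an actin crosslinker, rose from 46.0 ± 1.05 to 70.9 ± 2.69 FPKM (SD, n = 3), a log2 fold change of 0.62 (edgeR adjusted p = 7.92e-15). KANK2 (0.71), vinculin (VCL, 0.48) and talin 1 (TLN1, 0.53), the protein that binds and activates β tails, rose with edgeR adjusted p-values of 1.27e-13, 2.01e-12 and 2.78e-12. The 4 that fell were the adaptors CRK (-0.39), PARVA (-0.38), LIMS1 (-0.15) and leupaxin (LPXN, -0.59), with edgeR adjusted p-values of 4.80e-10, 5.01e-08, 0.00331 and 3.30e-04. PTK2, the focal adhesion kinase, was not called, with a log2 fold change of 0.00052 and an edgeR adjusted p of 0.992.

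Of the hemidesmosome and tetraspanin list, 9 genes were tested. Of these, 4 were called lower (44.4%, beside 27.0% of all genes) and 1 higher (11.1%, beside 27.8%). The share called either way was 55.6%, near the 54.8% of all genes. CD151, the tetraspanin that binds laminin receptors directly, fell from 23.5 ± 0.916 to 19.7 ± 0.786 FPKM (SD, n = 3), by 0.26 on the log2 scale (edgeR adjusted p = 1.37e-05). CD63 (-0.28), the hemidesmosomal collagen COL17A1 (-0.84) and CD82 (-0.86) were the others, with edgeR adjusted p-values of 1.59e-06, 9.66e-06 and 5.25e-05. COL17A1 was at 0.907 FPKM in si-NC and 0.507 FPKM in si-STRIP2. The 1 gene that rose was the tetraspanin CD81, by 0.14 on the log2 scale (edgeR adjusted p = 0.00514). The hemidesmosome linkers PLEC and DST were not called, with log2 fold changes of -0.054 and -0.081 (edgeR adjusted p = 0.329 and 0.152).

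The basement membrane list had 9 tested genes, 2 called higher and 2 lower (22.2% each way, beside 27.8% and 27.0% of all genes). NTN4, a secreted protein that binds laminin γ chains, had the largest change of the list, from 2.41 ± 0.05 to 0.980 ± 0.210 FPKM (SD, n = 3), a log2 fold change of -1.29 (edgeR adjusted p = 2.08e-10). The type IV collagen genes COL4A6 (-0.69) and COL4A5 (0.22) went in opposite directions, and the proteoglycan AGRN rose by 0.24 on the log2 scale (edgeR adjusted p = 6.38e-04, 0.00335 and 5.68e-04 in this order). COL4A1, COL4A2, NID1 and NID2, which form the scaffold of most basement membranes, did not pass the filter on low counts.

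The other integrin ligands had mostly calls lower. Of 18 tested genes, 14 were called lower (77.8%, beside 27.0% of all genes) and 1 higher (5.56%, beside 27.8%). The list's median was -0.33 on the log2 scale. CCN1, a matricellular ligand of ITGAV and ITGA6 receptors, fell from 9.70 ± 0.601 to 3.09 ± 0.326 FPKM (SD, n = 3), by 1.66 on the log2 scale (edgeR adjusted p = 3.70e-18). The adhesion molecule L1CAM (-1.04), fibronectin (FN1, -0.68) and the collagen VI chain COL6A3 (-2.04, from 0.123 to 0.03 FPKM) followed, with edgeR adjusted p-values of 2.69e-09, 1.25e-08 and 1.03e-07. MFGE8, a ligand of ITGAV receptors, was the 1 that rose, by 0.34 on the log2 scale (edgeR adjusted p = 2.41e-06). Across the 4 lists the shares called stood at 44.4% to 83.3%, beside the 54.8% of all genes tested.

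**Figure D4:**
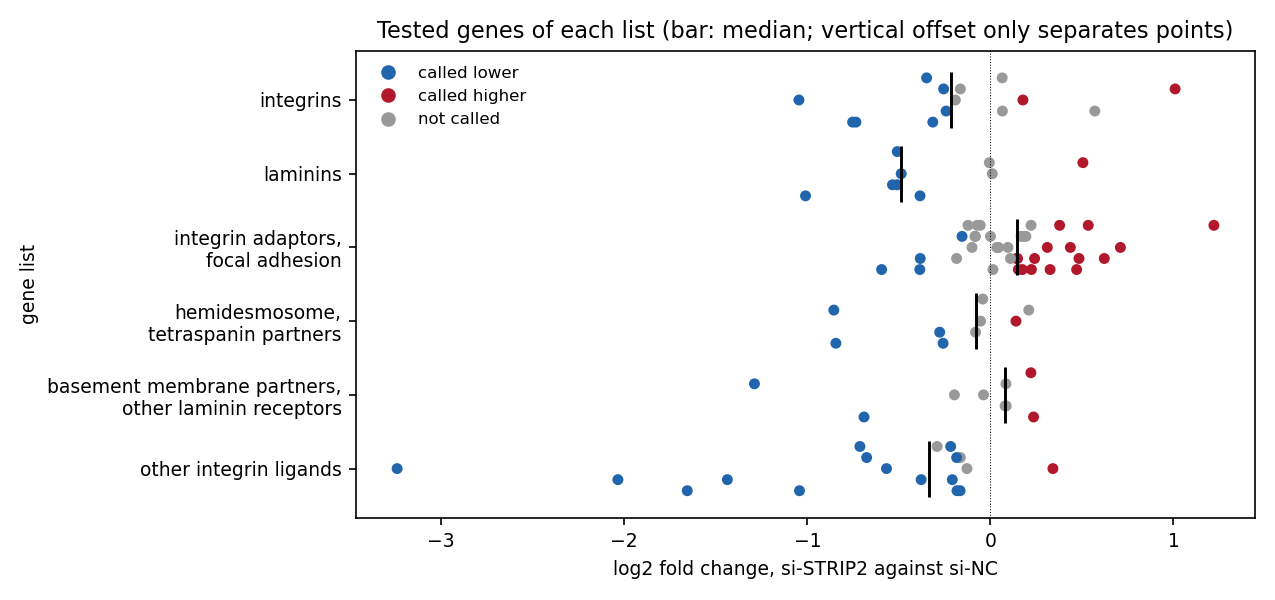
Log2 fold change of each tested gene (points, si-STRIP2 against si-NC) in the integrin and laminin genes and the 4 lists of genes that work with them, with a bar at each list's median; the vertical offset only separates points. Adaptors have a median of 0.15 and lie mostly to the right of 0, while integrins (median -0.22), laminins (-0.49) and the other integrin ligands (-0.33) lie mostly to the left.

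The test against a change of 1.2-fold, in place of any change, called 11 of the 23 members, beside 23.7% of all genes under the same test, and LAMA4, ITGA3, ITGA6, ITGA7 and ITGB5 were those that lost their calls. The direction of the other called genes, and their side of the threshold, was the same under each of their alternatives.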

How the data were processed

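Gene-level values of 6 poly(A) RNA-seq libraries of HCT116 cells (3 si-NC, 3 si-STRIP2) were taken from the table the authors deposited. Per the file headers, it holds, for 61806 genes and each library, a raw count and an FPKM, with exonic lengths and positions. The deposited counts are whole numbers, and the deposited FPKM values equal the count scaled by exonic length and column total to within 0.005. The submitters' processing notes name bcl2fastq 2.20.0.422, FastQC 0.10.1, cutadapt 1.9.1, HISAT2 2.2.1, HTSeq 0.6.1 and the build GRCh38.p13, with no settings. The library kit keeps strand, per the labels' protocols. Whether the counting used it is not given in the sources used here, so counts of overlapping genes (gene positions of the table, exons of GENCODE 29) are set beside the members they overlap.

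Counts were fitted in R 4.3.3 with edgeR 4.0.16 over the whole table: filterByExpr (minimum count 10, 15687 genes tested), TMM scaling, a quasi-likelihood fit with group as the only term, a 2-sided F test, and Benjamini-Hochberg adjustment over all genes tested. A gene was called where its adjusted p was under 0.05. The standard error is the absolute log2 fold change over the square root of F. Shares of summed FPKM were compared with exact permutation tests (SciPy 1.17.1). Alternatives were DESeq2 1.42.0, its size factors, other filters, limma 3.58.1 on log2(FPKM + 1) or log2(FPKM + 0.1), a test against a 1.2-fold change, a replicate block, and leaving out each library. The edgeR script was tested on simulated data. For 1 of the 33 genes, values and the sums and shares that need it are not reported here. The members and lists were chosen with earlier results of these data known. Members whose mean reached 1 FPKM in si-NC or si-STRIP2 were named, and of each partner list the 4 genes with the smallest adjusted p. Members under 1 FPKM that are named singly, and CRK, PARVA, LIMS1, LPXN, CD81, MFGE8, PTK2, PLEC, DST and the untested collagen and nidogen genes, were named after their values were seen.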

Additional observations from a re-analysis of the deposited data

How the results depend on the processing

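Over the 14 alternatives, 11 to 17 of the members were called, 9 to 13 of them lower and 2 to 4 higher, beside 16, 13 and 3 in the main test, while the share of all genes called ran from 23.7% (the 1.2-fold test, 11 members) to 60.5% (genes of at least 1 FPKM, 12 members). The 3 fits restricted to genes of at least 1 FPKM tested 16 of the members and called 12, 11 and 11, beside 60.5%, 55.7% and 55.5% of all genes (edgeR, then limma with 1 or 0.1 added). Leaving out each library in turn gave 15 to 17 calls. Of 301 values of single genes under the alternatives, 280 kept their direction and side of the threshold. LAMC1, LAMC3 and ITGA9, never called, changed sign: LAMC1 with only genes of at least 1 FPKM (-0.0026), without si-NC replicate 1 (-0.026) or 3 (-0.0083); LAMC3 without replicate 3 of si-NC (0.016) or of si-STRIP2 (0.057); ITGA9 without si-STRIP2 replicate 3 (0.10). Leaving out each library, they ranged from -0.026 to 0.058, from -0.064 to 0.057 and from -0.71 to 0.10. The cause was not tested. ITGA7 lost its call in 10 fits, with adjusted p-values from 0.0551 to 0.643, by edgeR, DESeq2 or limma. The difference in the ITGB1 share was -9.72 percentage points with counts in place of FPKM, which weighs long transcripts more. Leaving out a library, the differences ranged from -14.3 to -12.8 for ITGB1 and from 3.61 to 3.96 for the laminin-binding subunits.

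With the replicate block, 15 members were called, ITGA7 being the loss (edgeR adjusted p = 0.0551). The deviations of same-numbered libraries did not correlate positively (Pearson r = -0.086, -0.013 and -0.072 across genes), so the numbers are not taken as pairs. The share differences within numbers were the same by construction. The depth limits what can be said of the 9 genes at 12 counts or fewer per library, and of ITGA9 and ITGA10.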

Other observations

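Integrin genes whose symbols fall outside the set described above were scarce in these cells. The leukocyte α subunits ITGAL, ITGAM and ITGAD had 2 to 11 counts per library and were not tested. ITGAX had 31, 18 and 18 counts in si-NC and 13, 11 and 8 counts in si-STRIP2 (log2 fold change -0.99, SE 0.32, edgeR adjusted p = 0.00994). The platelet subunit ITGA2B had 21 to 41 counts and was not called (edgeR adjusted p = 0.160).

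ITGB1P1, a pseudogene copy of ITGB1, held 4.23% as many counts as ITGB1, so reads could be split between the copies in counting. It had 1328, 1041 and 891 counts in si-NC and 653, 731 and 692 counts in si-STRIP2, with a log2 fold change of -0.58 (SE 0.064, edgeR adjusted p = 1.94e-09), beside -0.73 for ITGB1. LAMB2P1 held 1.10% as many counts as LAMB2 and was not called (edgeR adjusted p = 0.488). ITGB1-DT, a transcript annotated on the other strand at the ITGB1 start, had 15, 18 and 11 counts in si-NC and 8, 8 and 3 counts in si-STRIP2 (log2 fold change -1.13, SE 0.41, edgeR adjusted p = 0.0188).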
